A study of Mus musculus with 6 samples.

Results

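The genes described here encode structural proteins of the epithelial basement membrane: the type IV collagen chains Col4a1 and Col4a2, the laminin chains Lama3, Lama5, Lamb1, Lamb2, Lamb3 and Lamc1, and the linker protein nidogen 1 (Nid1). They were taken by name, 9 genes of the 53953 rows listed in each library. The organoids came from crypts of the proximal small intestine of C57BL/6 wt mice and were used at passage 3-5. They received either arachidonic acid, a fatty acid that cells also take from their membrane lipids, during the 3 days up to a passage, or its vehicle, 0.1% ethanol. On day 3 after that passage RNA was extracted, with 3 libraries in each group. Both groups were cultured in Matrigel, a basement membrane extract of a mouse tumour that supplies laminin, type IV collagen and nidogen as protein. Protein was not measured. The sources used here give no dose of arachidonic acid. They also leave unsaid whether replicate libraries stand for separate cultures or mice, and the p-values measure no more than the spread of these 6 libraries, part or all of which may be technical.

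The basement membrane is a thin sheet on which epithelial cells rest. Laminins are cross-shaped heterotrimers of 1 alpha, 1 beta and 1 gamma chain that polymerise at the cell surface, type IV collagen forms a second network of trimers, and nidogens and perlecan join both networks. In the intestine the connective tissue beneath the epithelium is known to supply much of the type IV collagen, whereas the epithelium itself makes laminin chains. Cells hold on to laminin through integrins, dystroglycan and the Lutheran glycoprotein Bcam.

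Values are FPKM, fragments scaled by gene length and library depth. The libraries held 36.6 to 38.6 M fragments with vehicle and 35.6 to 50.8 M with arachidonic acid, as implied by the smallest steps of the values. Arachidonic acid replicate 1 stood apart from replicates 2 and 3, between them and the vehicle libraries for most genes that rose. All 9 genes were lower in it than in replicates 2 and 3. Without it the log2 differences were 4.78 for Col4a1, 4.92 for Col4a2, 2.87 for Nid1, 1.05 for Lamb3 and 1.48 for Lamc1, all called higher (limma), and those of Lama5 and Lamb2 are given with these genes. The organoids had the epithelial marker genes they are labelled for, with 10 of 10 tested (Krt8 at 731 to 778 FPKM with vehicle and 1430 to 1804 FPKM with arachidonic acid). Epcam and Cdx2 were called lower and Krt8, Krt18 and Krt19 higher. None of 12 fibroblast and muscle, 8 endothelial, 8 immune and 5 glial marker genes reached a mean of 1 FPKM.

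The 2 type IV collagen genes went from near absence to moderate levels. Col4a1 (ENSMUSG00000031502), which makes up the larger part of the common collagen IV trimer, was at 0.363, 0.0766 and 0.145 FPKM in the vehicle libraries and at 16.4, 32.8 and 30.3 FPKM in arachidonic acid replicates 1, 2 and 3. Every arachidonic acid library lay above every vehicle library, and replicate 1 was the lowest of its group. The mean rose from 0.195 ± 0.149 to 26.5 ± 8.88 FPKM as mean ± SD over n = 3 libraries a group, as for all later values. The ratio of the means was 136. It was 239 without vehicle replicate 1 and 104 without vehicle replicate 2, the extremes when any 1 library was left out. On the log2(FPKM + 1) scale used for the test, which understates the ratio of low values, the difference was 4.47 (SE 0.26, limma adjusted p = 0.00041). With limma-voom on recovered fragments, which adds no 1 FPKM, it was 7.23 (adjusted p = 0.0031). It rests on 47 fragments in the 3 vehicle libraries together and on 7432 with arachidonic acid. In bulk RNA, more expressing cells and more transcript per cell cannot be told apart, here and for the genes below.

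Col4a2 (ENSMUSG00000031503), the partner chain of the same trimer, was at 0.424, 0.161 and 0.182 FPKM with vehicle and at 15.7, 38.4 and 35.5 FPKM with arachidonic acid. Again the groups did not overlap and arachidonic acid replicate 1 was the lowest of its group. Its mean rose from 0.256 ± 0.146 to 29.9 ± 12.3 FPKM, a ratio of 117, or 98.5 to 174 with any 1 library left out. The log2 difference was 4.53 (SE 0.32, limma adjusted p = 0.00055), or 6.86 with limma-voom. By size of the log2 difference Col4a2 and Col4a1 ranked 17 and 21 among the 12913 genes tested. Both passed the filter of a mean of 1 FPKM only through the arachidonic acid libraries, so that the filter itself required them to differ. In the fit with no filter the limma adjusted p was 0.0040 for Col4a2 and 0.0038 for Col4a1.

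Collagen IV transcripts are abundant in endothelial cells and fibroblasts, so the markers of these cells are given beside them. The endothelial genes Cdh5, Cldn5 and Emcn were listed at 0 in all 6 libraries, and the 8 endothelial markers summed to 0.223 to 0.427 FPKM with vehicle and 0.503 to 0.882 FPKM with arachidonic acid. Those sums did not overlap, with Vwf the highest single value at 0.425 FPKM and Tek at 0 to 0.0151 and 0.0745 to 0.318 FPKM. The 12 fibroblast and muscle markers summed to 0.469 to 0.545 FPKM with vehicle and 0.290 to 0.713 FPKM with arachidonic acid, and Lum was listed at 0 throughout. The fibrillar collagen gene Col1a1 did not exceed 0.0902 FPKM in any library. The 8 immune markers summed to 1.33 to 2.48 and 1.64 to 2.66 FPKM and the 5 glial markers to 1.75 to 1.86 and 1.09 to 1.90 FPKM, vehicle first.

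**Figure D1:**
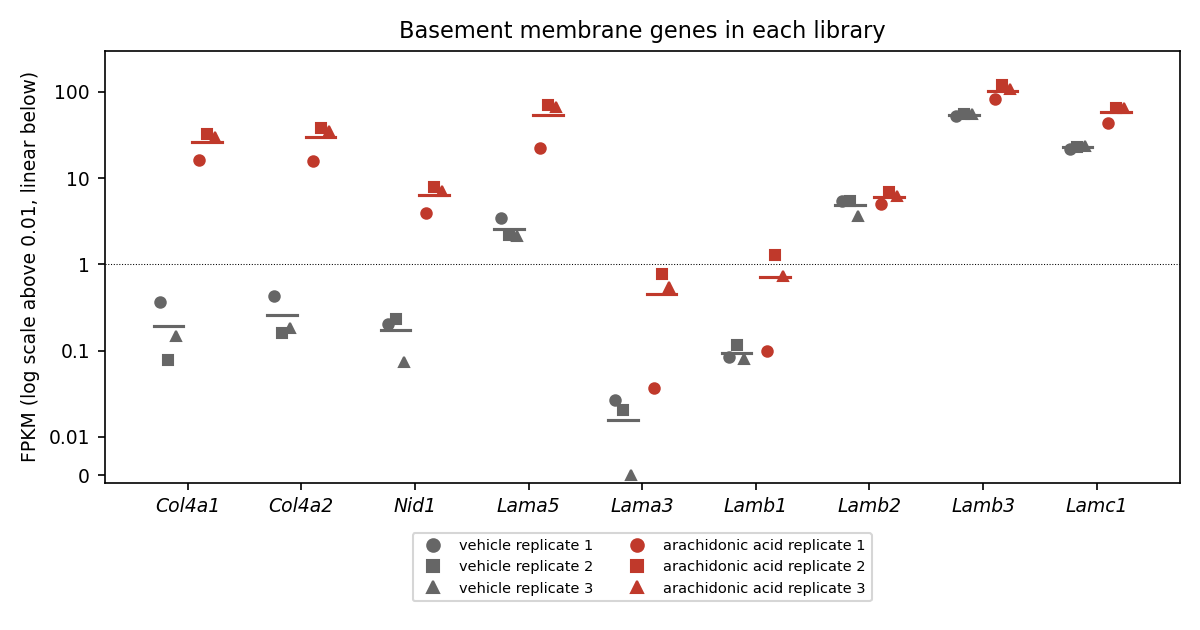
FPKM of the 9 basement membrane genes in each library, on an axis that is logarithmic above 0.01 and linear below, with vehicle in grey, arachidonic acid in red, 1 symbol per replicate number and a bar at each group mean. The dotted line marks 1 FPKM. Col4a1, Col4a2 and Nid1 lie below it in all vehicle libraries and above it in all arachidonic acid libraries, and the circle of arachidonic acid replicate 1 is the lowest red point of each gene.

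Nid1 (ENSMUSG00000005397), nidogen 1, binds laminin at the gamma 1 chain and type IV collagen and so links the 2 networks. It was at 0.206, 0.234 and 0.0738 FPKM with vehicle and at 3.98, 7.91 and 7.14 FPKM with arachidonic acid. The groups did not overlap, and the mean rose from 0.171 ± 0.0853 to 6.34 ± 2.09 FPKM, a ratio of 37.1 (log2 difference 2.61, SE 0.23, adjusted p = 0.00092, and 5.25 with limma-voom). It too passed the filter only through the arachidonic acid libraries, with 67 fragments over the vehicle libraries and 2916 over the others. In the fit with no filter its limma adjusted p was 0.0056. Nid2, its paralog, was already present with vehicle at 7.75 ± 0.667 FPKM and was at 10.3 ± 0.768 FPKM with arachidonic acid (log2 difference 0.37, SE 0.10, adjusted p = 0.024).

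Among the alpha chains Lama5 (ENSMUSG00000015647), the alpha chain of the laminins that are most widespread under adult epithelia, was the one at a substantial level. It was at 3.46, 2.20 and 2.11 FPKM with vehicle and at 22.6, 69.6 and 67.5 FPKM with arachidonic acid. All arachidonic acid libraries were above all vehicle libraries, and replicates 2 and 3 were about 3.03 times as high as replicate 1. The mean rose from 2.59 ± 0.755 to 53.2 ± 26.5 FPKM, a ratio of 20.5 (log2 difference 3.78, SE 0.42, adjusted p = 0.0017). Without arachidonic acid replicate 1 the difference was 4.30 (adjusted p = 3.8e-07).

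Lama3 (ENSMUSG00000024421), the alpha chain that joins Lamb3 in the laminin of hemidesmosomes, stayed under 1 FPKM in every library. It was at 0.0266 and 0.0204 FPKM in vehicle replicates 1 and 2 and was listed at 0 in replicate 3, and it was at 0.0367, 0.778 and 0.545 FPKM with arachidonic acid. These values stand for 8, 6 and 0 fragments with vehicle and 15, 223 and 213 with arachidonic acid, where a count of 0 allows up to 3 fragments, or 0.00966 FPKM, by counting error alone. Replicate 1 lay close to the vehicle libraries and replicates 2 and 3 well above them. The gene did not pass the filter on low values. In the fit with no filter, where 9.11% of 28021 genes were called higher and 7.46% lower, its log2 difference was 0.48 (SE 0.20, limma adjusted p = 0.16). The added 1 FPKM shrinks that difference. In FPKM the ratio of the means was 28.9, which the few vehicle fragments leave imprecise.

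Lamb3 (ENSMUSG00000026639), the beta chain of the hemidesmosomal laminin, was the highest of the 9 genes in every library. It was at 52.6, 55.1 and 55.3 FPKM with vehicle and at 82.1, 120.0 and 108 FPKM with arachidonic acid, with no overlap. The mean rose from 54.3 ± 1.51 to 103 ± 19.4 FPKM, a ratio of 1.90 (log2 difference 0.90, SE 0.14, adjusted p = 0.0039).

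Lamb2 (ENSMUSG00000052911), a beta chain prominent at synapses and in the kidney glomerulus, did not pass the test. It was at 5.42, 5.42 and 3.65 FPKM with vehicle and at 4.99, 6.91 and 6.21 FPKM with arachidonic acid, and the groups overlapped through replicate 1. The log2 difference was 0.28 (SE 0.17, 95% interval -0.13 to 0.68, adjusted p = 0.23), so a rise of up to that bound and a small fall both lie within its error. It also missed the threshold without arachidonic acid replicate 1 (log2 difference 0.39, adjusted p = 0.061), where 27.5% of the genes tested were called higher and 32.4% lower.

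Lamb1 (ENSMUSG00000002900), the widely expressed beta chain that pairs with Lamc1, was low. It was at 0.0833, 0.117 and 0.0808 FPKM with vehicle and at 0.0996, 1.28 and 0.737 FPKM with arachidonic acid, from 8, 11 and 8 and from 13, 117 and 92 fragments. Replicate 1 lay inside the vehicle range, and replicates 2 and 3 lay above it. Lamb1 did not pass the filter, and with no filter its log2 difference was 0.58 (SE 0.26, limma adjusted p = 0.20). In FPKM, with no 1 FPKM added, the ratio of the means was 7.53, again from few vehicle fragments.

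Lamc1 (ENSMUSG00000026478), the gamma chain of most laminins, was at 21.5, 22.8 and 23.9 FPKM with vehicle and at 43.9, 65.3 and 65.3 FPKM with arachidonic acid. The vehicle libraries lay close together and all arachidonic acid libraries above them. The mean rose from 22.7 ± 1.17 to 58.2 ± 12.4 FPKM, a ratio of 2.56 (log2 difference 1.297, SE 0.16, adjusted p = 0.0021).

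In all, 7 of the 9 genes passed the filter on low values, 3 of them only through the arachidonic acid libraries. Of the 7, 6 were called higher (limma, Benjamini-Hochberg adjusted p under 0.05), 0 lower and 1 not called, where 20.8% of all genes tested were called higher and 19.4% lower. In the fit with no filter, which holds all 9 members, their median log2 difference was 1.297, beside 0.001 over the 28021 genes. Every arachidonic acid library was above every vehicle library for the 6 called genes, beside 27.6% of all genes tested. For 3 of these 6, Col4a1, Col4a2 and Nid1, the filter itself required a higher mean with arachidonic acid. Lama3, which is not among the genes tested, showed the same order on few fragments. The 6 calls were also made in each of the alternative fits that tested the gene, including those without any 1 library.

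The position of arachidonic acid replicate 1, on a scale of FPKM where 0 is the mean of the vehicle libraries and 1 that of replicates 2 and 3, differed among the genes. Nid1, Col4a1 and Lamc1 lay at 0.52, 0.51 and 0.50, and Lamb3, Col4a2 and Lama5 at 0.47, 0.42 and 0.30. Lamb2, Lama3 and Lamb1, none of them called, lay at 0.09, 0.03 and 0.0065. Their positions are imprecise. For Lamb2 the vehicle mean of 4.83 FPKM (SD 1.02) and the mean of replicates 2 and 3, 6.56 FPKM, lie close together. Lama3 and Lamb1 had 15 and 13 fragments in replicate 1, and Lama3 there, at 0.0367 FPKM, was above every vehicle library. Over the 1671 genes called higher by at least 0.5 log2 units the median was 0.51, with quartiles of 0.35 and 0.70. Lama5 lay below the lower quartile, and the other 5 called members lay between it and about the median.

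**Figure D2:**
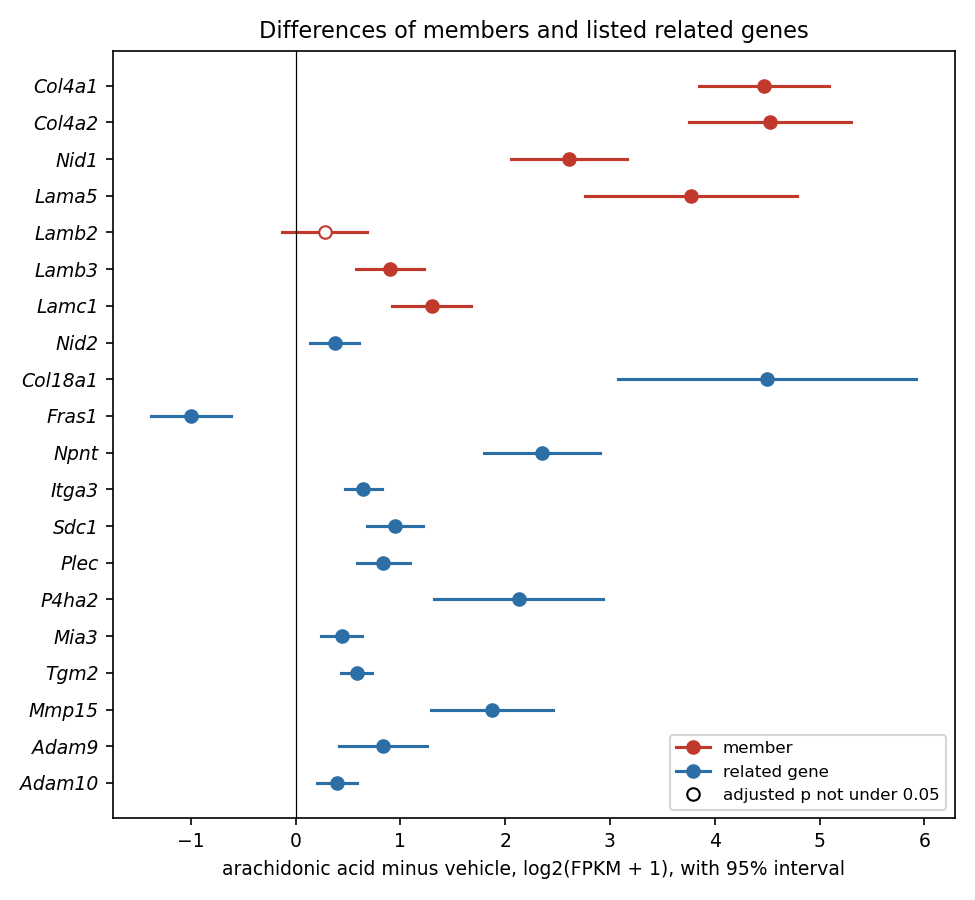
Log2 differences, arachidonic acid minus vehicle, with 95% intervals from limma, for the 7 members that passed the filter (red) and the related genes that the rule for named genes picked from each list (blue). The open point, Lamb2, did not pass the test. Col4a1, Col4a2 and Lama5 lie right of all other members, near Col18a1, and Fras1 is the plotted gene that fell.

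Col4a1 and Col4a2 stand head to head on opposite strands and are known to be transcribed from a shared promoter, so their RefSeq promoter windows are shown first. Those of Lama5 and Nid1, the other members with the largest rises, and of Lamb2, the one that was tested and not called, follow. Each window runs from 250 bases before the annotated start to 50 from it, in build GRCm38.p6 of RefSeq, 5′ to 3′ on the gene's own strand. Capitals mark matches on either strand to the letters of AP-1 (TGACTCA), TEAD (GGAATG), Sp1 (GGGCGG) and the CCAAT box (CCAAT).
Col4a1, chr8:11312777-11313076, minus strand: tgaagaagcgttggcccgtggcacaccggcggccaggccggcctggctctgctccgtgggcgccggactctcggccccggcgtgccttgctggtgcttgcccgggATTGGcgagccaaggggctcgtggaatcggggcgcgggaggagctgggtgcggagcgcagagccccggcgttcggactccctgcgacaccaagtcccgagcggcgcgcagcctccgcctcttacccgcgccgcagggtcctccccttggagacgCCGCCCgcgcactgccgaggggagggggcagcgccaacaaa
Col4a2, chr8:11312555-11312854, plus strand: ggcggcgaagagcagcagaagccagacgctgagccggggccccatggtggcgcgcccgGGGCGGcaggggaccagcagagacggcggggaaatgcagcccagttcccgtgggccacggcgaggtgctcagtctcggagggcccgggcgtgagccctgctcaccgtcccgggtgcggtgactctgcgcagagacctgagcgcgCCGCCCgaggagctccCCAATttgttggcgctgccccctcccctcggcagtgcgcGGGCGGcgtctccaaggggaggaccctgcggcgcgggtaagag
Lama5, chr2:180225810-180226109, minus strand: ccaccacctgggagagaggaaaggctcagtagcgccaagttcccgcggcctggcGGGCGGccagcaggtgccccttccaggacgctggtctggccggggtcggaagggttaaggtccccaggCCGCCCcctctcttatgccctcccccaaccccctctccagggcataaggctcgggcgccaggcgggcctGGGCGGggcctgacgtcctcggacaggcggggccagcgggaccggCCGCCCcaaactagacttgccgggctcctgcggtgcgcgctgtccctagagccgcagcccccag
Nid1, chr13:13437352-13437651, plus strand: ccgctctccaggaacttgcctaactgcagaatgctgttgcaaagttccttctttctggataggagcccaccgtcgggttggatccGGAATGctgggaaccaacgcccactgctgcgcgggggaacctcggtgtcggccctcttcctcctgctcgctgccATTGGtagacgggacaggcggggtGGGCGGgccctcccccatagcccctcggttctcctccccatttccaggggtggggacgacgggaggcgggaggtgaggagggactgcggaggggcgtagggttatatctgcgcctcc
Lamb2, chr9:108479612-108479911, plus strand: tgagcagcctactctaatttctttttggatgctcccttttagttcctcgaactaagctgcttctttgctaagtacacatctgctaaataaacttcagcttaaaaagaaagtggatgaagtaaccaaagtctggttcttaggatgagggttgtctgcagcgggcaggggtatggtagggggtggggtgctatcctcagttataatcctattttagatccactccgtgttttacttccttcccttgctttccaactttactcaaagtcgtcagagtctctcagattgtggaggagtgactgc
Windows of 7 of the 9 genes were searched, 8 windows in all, since Lamb3 has a pair of annotated starts. The search did not take in every chromosome, and it held no window for Lama3 or Lamc1. The Col4a1 and Col4a2 windows share 78 bases, and their annotated first exons overlap by 22 bases on opposite strands. If counting ignored strand, which the sources used here do not say, fragments from those bases could go to either gene or be left uncounted. The same holds for antisense genes that share 43 exon bases with Col4a2, 197 with Lama3 and 143 with Nid1. The Sp1 letters occurred 1, 3, 4 and 1 times in the windows of Col4a1, Col4a2, Lama5 and Nid1 and 0 times in that of Lamb2. Lamb3, which was called higher, had 0 in both windows, and Lamb1, which was not tested, had 2. They occur in 35.7% of the 32851 windows of the table. One of these matches lies in the stretch shared by Col4a1 and Col4a2 and is counted for both. The TEAD letters occurred in Nid1 and in 1 window of Lamb3 (14.7% of all windows), the CCAAT letters in Col4a1, Col4a2, Nid1 and Lamb1 (37.4%), and the AP-1 letters in none of the 8 (5.20%). No match overlapped a match to another motif. The windows of Col4a1, Col4a2 and Lama5 were 74.0%, 73.7% and 72.7% G and C and that of Lamb2 44.0%, those of Nid1, Lamb1 and Lamb3 64.7%, 63.7% and 59.3%, beside a median of 52.7% over all windows. A match is a run of letters in this window and was not tested as a binding site.

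The 2 collagen IV genes were at similar levels in FPKM. The ratio of Col4a1 to Col4a2 in FPKM was 1.04, 0.855 and 0.855 in arachidonic acid replicates 1, 2 and 3. With vehicle it was 0.854, 0.475 and 0.80, from 29 against 43, 6 against 16 and 12 against 19 fragments, so counting error is large there. The groups did not overlap, by the narrowest margin, and the log2 ratios differed by 0.41 (two-sided exact permutation p = 0.10, adjusted p = 0.20), by 0.14 without vehicle replicate 2 and by -0.055 with 1 FPKM added. The ratios to Lamc1 differed by more. The ratio of Nid1 to Lamc1 went from 0.00956, 0.0103 and 0.00309 with vehicle to 0.0906, 0.121 and 0.109 with arachidonic acid, and that of Col4a1 to Lamc1 from 0.0168, 0.00336 and 0.00609 to 0.373, 0.503 and 0.464. For both, all arachidonic acid libraries lay above all vehicle libraries. In log2 units these ratios differed by 3.98 and 5.98 between the groups (two-sided exact permutation p = 0.10, adjusted p = 0.20 over the 6 ratios compared), and 3 libraries against 3 cannot go below 0.10.

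The other 3 ratios overlapped between the groups. Lamb2 to Lamb1 was 65.1, 46.3 and 45.2 with vehicle and 50.1, 5.40 and 8.43 with arachidonic acid (exact permutation p = 0.30, adjusted p = 0.45). Lamb3 to Lamb1 was 631, 471 and 684 with vehicle and 824, 93.8 and 146 with arachidonic acid (exact permutation p = 0.40, adjusted p = 0.48). Replicate 1, with 13 fragments of Lamb1, lay inside the vehicle range for Lamb2 to Lamb1 and above it for Lamb3 to Lamb1. In both ratios replicates 2 and 3 were lower than every vehicle library. The log2 difference for Lamb3 to Lamb1, -1.39, was -2.33 without replicate 1 and turned to 0.32 with 1 FPKM added. Lama3 to Lama5 was 0.00768 and 0.00928 in vehicle replicates 1 and 2, could not be formed in replicate 3, and was 0.00162, 0.0112 and 0.00807 with arachidonic acid (exact permutation p = 1), and its log2 difference turned from -0.68 to 0.17 without arachidonic acid replicate 1. Lama5 therefore outweighed Lama3 in every library with both.

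**Figure D3:**
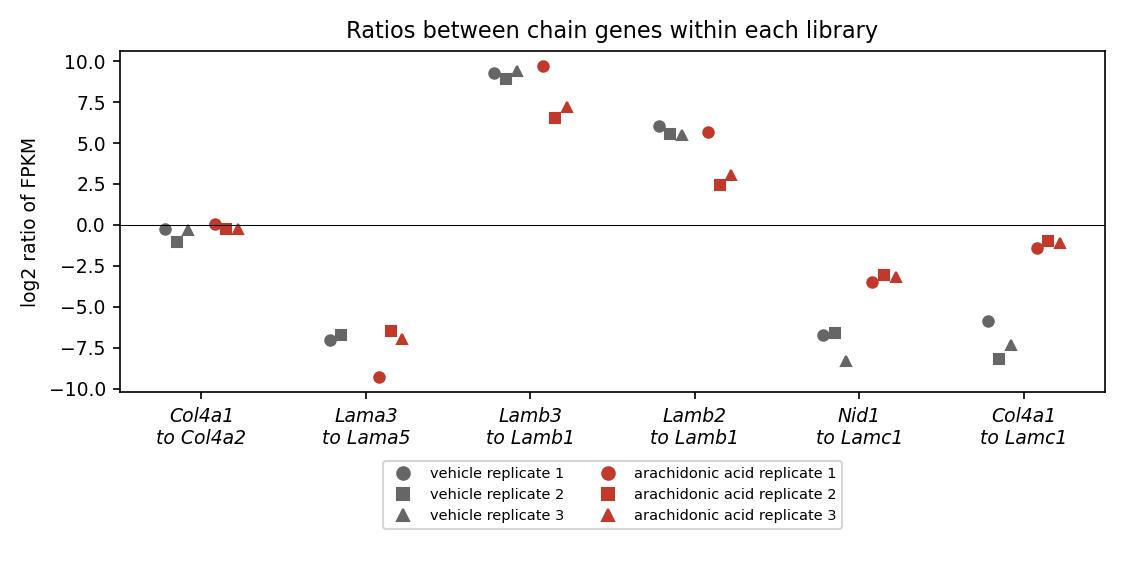
Log2 ratios of FPKM for 6 pairs of genes in each library, vehicle in grey and arachidonic acid in red, 1 symbol per replicate number. The ratio of Lama3 to Lama5 is missing in vehicle replicate 3, where Lama3 was listed at 0. Nid1 and Col4a1 relative to Lamc1 separate the groups. Arachidonic acid replicate 1 sits among the vehicle libraries for Lamb2 to Lamb1 and above them for Lamb3 to Lamb1.

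Levels of different chains can be compared only per length, and the deposited FPKM used the mean length over all annotated transcripts of a gene, including short ones. For Lama5 that was 3263 bases where the longest protein-coding transcript in GENCODE M21 has 11388, and for Lamb2 1180 against 5629. The FPKM were therefore also rescaled to the longest protein-coding transcript, a choice made after seeing the data. On that scale the vehicle means were 20.5 for Lamb3, 6.69 for Lamc1, 1.01 for Lamb2 and 0.742 for Lama5, followed by 0.108 for Col4a2, 0.0987 for Nid1, 0.0631 for Col4a1, 0.0416 for Lamb1 and 0.0120 for Lama3. Lamb2 and Lama5 differed by little more than their SDs of 0.215 and 0.216. From Col4a2 (SD 0.0615) through Nid1 (SD 0.0492) and Col4a1 (SD 0.0483) down to Lamb1, each step was smaller than the larger SD. With arachidonic acid the order on the same scale was Lamb3 at 39.0 ± 7.31, Lamc1 at 17.1 ± 3.64, Lama5 at 15.3 ± 7.60, Col4a2 at 12.5 ± 5.19, Col4a1 at 8.58 ± 2.87, Nid1 at 3.66 ± 1.20, Lamb2 at 1.27 ± 0.203, Lama3 at 0.346 ± 0.289 and Lamb1 at 0.313 ± 0.262. From Lamc1 through Lama5 and Col4a2 down to Col4a1, each step there was smaller than the larger SD, as was that from Lama3 to Lamb1. Within each arachidonic acid library, however, Col4a2 lay above Col4a1, at 6.60, 16.1 and 14.9 against 5.29, 10.6 and 9.82. Lamc1 lay above Col4a1 in each as well, at 12.9, 19.2 and 19.2. The order of Lamc1 and Lama5, of Lama5 and Col4a2, and of Lama3 and Lamb1 changed among these libraries. By the group means Lama5 moved from the fourth to the third place, but it lay below Col4a2 in replicate 1 and above Lamc1 in replicates 2 and 3. Col4a1, Col4a2 and Nid1 came to stand above Lamb2.

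Of the summed FPKM of the 5 alpha chain genes, Lama5 took 98.3% ± 0.666 with vehicle and 99.3% ± 0.482 with arachidonic acid, and Lamb3 took 91.7% ± 1.73 and 93.9% ± 0.276 of the 3 beta chain genes. With 1 FPKM added to every gene the share of Lama5 was 46.7% with vehicle and 90.9% with arachidonic acid, where 4 of the 5 genes were under 1 FPKM in every library.

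The sums of the alpha and beta chain genes were unequal. On the rescaled levels the alpha chains together amounted to 4.94%, 2.94% and 2.86% of the beta chains with vehicle and to 20.3%, 43.4% and 46.6% with arachidonic acid. The groups did not overlap.

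**Figure D4:**
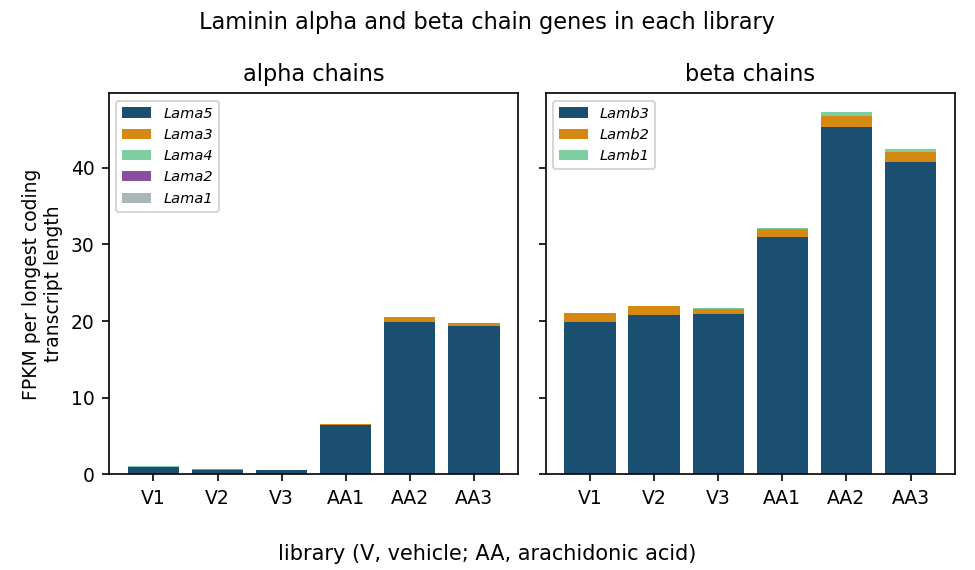
FPKM rescaled to the longest protein-coding transcript, stacked by gene, for the laminin alpha and beta chain genes in each library (V, vehicle; AA, arachidonic acid). Alpha chain transcripts, nearly all Lama5, sum to less than the beta chains, nearly all Lamb3, in every library.

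Further chain genes of both families were low. Of 9 such genes and nidogens described here, 1 was tested, Nid2, and it was called higher as given above. Col4a3 was at 0.0914 ± 0.0456 and 0.0806 ± 0.0165 FPKM, Col4a4 at 0.0245 ± 0.0278 and 0.0480 ± 0.0220 FPKM and Col4a5 at 0.0309 ± 0.0215 and 0.219 ± 0.0306 FPKM, vehicle first. Col4a6 and Lamc3 had 1 fragment each in all 6 libraries together, Lama2 had 1 and Lama4 had 9, all with vehicle for the last 2. Lama1, which encodes the alpha chain of the laminin in Matrigel, had 0 fragments in every library, which allows at most 0.0141 to 0.0201 FPKM by counting error alone.

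Of 20 other components of the basement membrane 10 were tested, with 4 called higher and 3 lower (median log2 difference 0.27). Over all genes tested 20.8% were called higher and 19.4% lower. Of the 10, 2 had passed the filter only through the arachidonic acid libraries. Col18a1, the collagen that carries endostatin, rose from 0.531 ± 0.201 to 42.2 ± 28.5 FPKM (log2 difference 4.50, SE 0.60, adjusted p = 0.0027), with arachidonic acid libraries at 11.2, 67.1 and 48.4 FPKM. Col18a1 and Npnt were the 2 that passed only through those libraries, so that the filter required them to differ; with no filter their adjusted p were 0.011 and 0.0067 (limma). Npnt, nephronectin, an integrin ligand, rose from 0.968 ± 0.0532 to 9.39 ± 3.07 FPKM. Fras1, of the complex that anchors epithelia to the matrix, fell from 6.996 ± 1.31 to 2.99 ± 0.514 FPKM. Agrn and Tinagl1 were the other genes called higher and Smoc2 and Ntn4 the other genes called lower.

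Genes of receptors for this matrix and of proteins linked to such receptors numbered 10 higher and 2 lower of 14 tested (median log2 difference 0.60). Itga3, an integrin subunit that binds laminin, rose from 33.7 ± 0.414 to 53.4 ± 4.16 FPKM, Sdc1, syndecan 1, from 169 ± 4.39 to 330 ± 48.2 FPKM, and Plec, plectin, which ties hemidesmosomes to keratin, from 9.83 ± 0.0332 to 18.5 ± 2.54 FPKM. Dag1, dystroglycan, and Sdc4 were those called lower. Of 19 genes of collagen modification, folding and export 13 were tested, with 6 higher and 1 lower (median 0.25). P4ha2, a prolyl hydroxylase subunit that modifies collagen, rose from 10.1 ± 3.56 to 48.7 ± 18.4 FPKM (log2 difference 2.13, SE 0.34, adjusted p = 0.0047), Mia3, which loads collagen into transport carriers, from 56.3 ± 3.42 to 76.8 ± 6.05 FPKM, and Tgm2, a crosslinking transglutaminase, from 23.2 ± 0.794 to 35.2 ± 0.709 FPKM. Serpinh1, the collagen chaperone, did not exceed 0.0172 FPKM in any library.

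Of 18 proteases and inhibitors that act on the matrix 7 were tested, with 4 higher and 1 lower (median 0.27). Mmp15, a membrane-bound metalloproteinase, rose from 15.2 ± 1.67 to 60.6 ± 19.5 FPKM (log2 difference 1.87, SE 0.25, adjusted p = 0.0026), and Adam9 and Adam10, membrane-bound sheddases, from 24.2 ± 1.48 to 44.8 ± 10.7 FPKM and from 83.0 ± 3.86 to 109 ± 9.35 FPKM. Mmp14 was the gene called lower. The shares called in these 4 lists can be read against the 20.8% of all genes tested that were called higher and the 19.4% called lower.

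The genes whose 6 values were most alike to each member were found by the root mean square distance of log2(FPKM + 1), centred on each gene's own vehicle mean, among 9286 or 9287 named genes whose mean reached 5 FPKM. Col4a1 and Col4a2 were each other's nearest gene, at 0.10 log2 units, and Ano1, a calcium-activated chloride channel, was next for both, at 0.14 and 0.19. Hs3st1 was the second nearest to Nid1 (0.084). Bmp8b and Tnni2 were nearest to Lama5 (0.13 and 0.19), Gch1 and Chp1 to Lamc1 (0.043 and 0.0499), and Tmsb10 and Ripk3 to Lamb3 (0.018 and 0.032). Lman2l and Prpf40b were nearest to Lamb2 (0.062 and 0.074), Uckl1 and Lrrc26 to Lama3 (0.035 and 0.059), and Lrrc26 and Sema3b to Lamb1 (0.057 and 0.070). The measure describes 6 libraries that share their groups. The added 1 FPKM shrinks the differences of low genes, so a near gene can differ much in its ratio of means. Uckl1, for example, went from 52.0 to 73.8 FPKM where Lama3 went from 0.0157 to 0.453 FPKM.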

How the data were processed

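Each deposited file holds 1 library and names no unit. The values behave as FPKM in which the authors divided each gene's fragments by its mean annotated transcript length: FPKM times mean length in GENCODE M21 came within 0.1 of a whole multiple of 1 step for 96.3% to 96.8% of values under 100 fragments. That step gave depth and recovered fragments. The submitters' processing notes name featureCounts 1.5.0-p3, HISAT2 2.0.5 and StringTie 1.3.3b, with no roles. Build, annotation and strand setting were not found there.

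Symbols were found for 53274 of 53465 Ensembl identifiers. limma 3.58.1 (R 4.3.3) fitted the group, with a variance trend, to log2(FPKM + 1) of the 12913 genes that averaged 1 FPKM or more. P-values were two-sided and Benjamini-Hochberg adjusted over those genes, with a threshold of 0.05. The test was checked on simulated data. The members and lists were chosen with earlier results of these data known. Named genes were the members, the other chain genes, the 3 smallest p-values of each list and the 2 nearest genes of each member; further genes are named where counts are small, after their values were seen. Ratios were compared by exact permutation in Python 3.11.15, adjusted over 6. Alternatives were scaling by quantiles, to TPM or by median of ratios, a minimum of 5 FPKM or none, a pseudocount of 0.1, the recovered fragments in limma-voom, a replicate block, leaving out each library, and, for ratios and shares, a pseudocount of 1 FPKM. Ratios of means without each library were added after seeing the data. 1 further gene, and the results that need it, are not reported here.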

Additional observations from a re-analysis of the deposited data

How the results depend on the processing

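The 6 genes called higher and 0 called lower were the same in number with the replicate block (6 and 0; deviations of same-numbered libraries correlated across genes at -0.081, 0.21 and -0.062, so the numbers are not taken to pair them) and in the other fits, except that with a minimum mean of 5 FPKM Nid1 was not tested and 5 were higher. The median of all genes moved by less than 0.1 log2 units under every scaling. Log2 differences of Col4a1, Col4a2 and Nid1 reached 7.23, 6.86 and 5.25 with limma-voom, which adds no 1 FPKM. With a pseudocount of 1 FPKM the group difference in log2 ratio turned to -0.055 for Col4a1 to Col4a2 (from 0.41) and to 0.32 for Lamb3 to Lamb1 (from -1.39). For Lama3 to Lama5 (-0.68) it was -3.30 with that pseudocount. Over the fits that left out 1 library it was -1.22 to 0.17, and 0.17 without arachidonic acid replicate 1. A pseudocount of 1 FPKM gave shares of Lama5 of 46.7% with vehicle and 90.9% with arachidonic acid, and of Lamb3 of 88.9% and 92.3%. The longest transcript length gave 96.9% and 98.2% for Lama5 and 95.1% and 96.2% for Lamb3. Few fragments limit the vehicle values of Col4a1, Col4a2, Nid1, Lama3 and Lamb1.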

Other observations

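Lamb3 encodes a partner of Lama3 in 1 laminin trimer, and its transcripts were abundant in every library while those of Lama3 were few. With vehicle Lamb3 had 3609, 3704 and 3916 fragments, against 8, 6 and 0 for Lama3. With arachidonic acid Lamb3 had 7658, 7844 and 9633 fragments and Lama3 15, 223 and 213.

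The genes for modifying collagen did not move as 1 group. P4ha1 and P4ha2, both prolyl hydroxylase subunits, P4hb, and Plod2, a lysyl hydroxylase, were called higher. P4ha1 was at 10.2 ± 2.37 and 28.1 ± 9.08 FPKM, P4hb at 713 ± 45.4 and 876 ± 59.4 FPKM and Plod2 at 1.42 ± 0.534 and 10.5 ± 5.98 FPKM, vehicle first. The other lysyl hydroxylases listed, Plod1 and Plod3, were not called, and neither were Colgalt1, Crtap and P3h1. Ppib, a prolyl isomerase, was called lower at 48.9 ± 4.86 and 38.6 ± 0.712 FPKM, vehicle first.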
